A study of Mus musculus with 2 samples.

Results

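The genes described here encode 7 mouse aquaporins, Aqp1, Aqp3, Aqp4, Aqp5, Aqp8, Aqp9 and Aqp11, out of 23176 genes in an mRNA sequencing comparison. They were taken by gene symbol, and they were proposed with the levels of this same comparison in view, so their values are given as a description. Expression was measured in STHdhQ111 cells (genotype HdhQ111/Q111, both huntingtin alleles with the long CAG tract) and in STHdhQ7 cells (genotype HdhQ7/Q7). Both are 129SvEv/CD1 lines derived from striatum of embryonic day 14, used at fewer than 15 passages and grown at 33 °C. Both were moved to 39 °C for 2 days before the experiment to halt division. Each genotype is represented by 1 line, so an effect of the genotype and of how each line was derived cannot be told apart. The titles name 3 replicates per line, and the authors' values combine them into 1 value per line.

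Aquaporins form channels in cell membranes that let water move along osmotic gradients. The water-selective channels pass little else, the aquaglyceroporins also pass glycerol and other small uncharged solutes, and a divergent subgroup sits largely in intracellular membranes. In the brain, Aqp4 is the main water channel of astrocytes and Aqp1 is known from the epithelium of the choroid plexus, which secretes cerebrospinal fluid. Aqp5 is best known from salivary and lacrimal glands and from the lung.

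Both water-selective channels that STHdhQ7 cells expressed at a clear level, Aqp5 and Aqp1, were far lower in STHdhQ111 cells. The aquaglyceroporin Aqp3 was higher in STHdhQ111, at a low level. The authors tested 4 of the 7 genes (Aqp1, Aqp3, Aqp5 and Aqp11). Of these, 2 were called lower and 1 was called higher, where called means a q-value of 0.05 or less in the authors' deposited table. Over all 12740 tested genes 13.5% were called, 7.17% lower and 6.35% higher, and since the aquaporins were chosen on this comparison nothing is read from the difference. The remaining 3 genes, Aqp4, Aqp8 and Aqp9, had no test. All levels are FPKM (fragments corrected for transcript length and for the number mapped), which allows levels of different genes to be set side by side. With 1 value per line there is no spread between replicates to set beside them. In RNA of whole cultures, fewer cells that express a gene and less RNA per cell cannot be told apart.

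Aqp5 (chromosome 15, 99421459 to 99425260, mm9 build) was listed at 1.34 FPKM in STHdhQ111 and at 49.3 FPKM in STHdhQ7. It was the most abundant aquaporin of STHdhQ7, above 93.0% of all genes there, against 53.0% of all genes in STHdhQ111. In the authors' deposited table Aqp5 had a log2 fold change of -5.20, which is 36.8-fold lower in STHdhQ111. Dividing that fold change by the authors' test statistic gives an implied standard error of 0.61 and a 95% interval of -6.39 to -4.01. The authors' deposited table lists its q-value as 0, which is below the precision of the table. Among the 506 genes called lower and at 1 FPKM or more in both lines, Aqp5 stood at rank 3 by the size of its fall. The floor of 1 FPKM, which Aqp5 passes narrowly in STHdhQ111, leaves out the rest of the 895 genes called lower with a fold change. Larger falls are among those left out, such as Pax6 (log2 fold change -9.45) and Sox2 (-7.00). The rank depends on the floor, and nothing is read from it.

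Aqp1 (chromosome 6, 55286293 to 55298549, mm9), the water channel first found in red blood cells, was listed at 1.25 FPKM in STHdhQ111 and at 33.6 FPKM in STHdhQ7. In the authors' deposited table Aqp1 had a log2 fold change of -4.75 (implied standard error 0.57), which is 26.9-fold lower in STHdhQ111, with a 95% interval of -5.86 to -3.63, and its q-value is also listed as 0. In the ranking with the floor of 1 FPKM Aqp1 stood at 7. Nes, with a larger fall (log2 fold change -5.17), is left out there at 0.999 FPKM in STHdhQ111. The fold changes of Aqp5 and Aqp1 differed by -0.45 on the log2 scale, with an implied standard error of 0.83 if their errors are independent, so their order by fold is not resolved. The level of Aqp5 was 1.07 times that of Aqp1 in STHdhQ111 and 1.46 times in STHdhQ7.

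Aqp3 (chromosome 4, 41039757 to 41045216, mm9), an aquaglyceroporin known from skin and from the kidney collecting duct, was listed at 1.38 FPKM in STHdhQ111 and at 0.180 FPKM in STHdhQ7. In the authors' deposited table Aqp3 had a log2 fold change of 2.94 (implied standard error 0.83), which is 7.68-fold higher in STHdhQ111, with a 95% interval of 1.31 to 4.57 and a q of 0.00482. The value in STHdhQ7 is low. With 0.5 FPKM added to both levels the log2 ratio was 1.47, and with 0.1 FPKM added it was 2.40. Among the 802 genes called higher with a fold change, Aqp3 stood at rank 307. No floor on the level was set for this rank, so it is not comparable with the ranks of Aqp5 and Aqp1. Its call was not kept when genes under a mean of 1 FPKM were left out, or with the stricter Bonferroni adjustment.

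Aqp11 (chromosome 7, 104874889 to 104886757, mm9) belongs to the divergent, intracellular subgroup, and its loss in mice is known to cause cystic kidneys. It was listed at 0.854 FPKM in STHdhQ111 and at 0.450 FPKM in STHdhQ7 and was not called. In the authors' deposited table Aqp11 had a log2 fold change of 0.92 (implied standard error 0.82) and a q of 0.692, and the 95% interval of -0.68 to 2.53 spans 0 and changes of more than 4-fold. The fold change of Aqp3 exceeded that of Aqp11 by 2.02 on the log2 scale, with an implied standard error of 1.17 if their errors are independent.

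The untested members were listed at or near 0. Aqp4 (chromosome 18, 15547903 to 15562193, mm9), the main water channel of astrocytes, was listed at 0 in both lines. Aqp8 (chromosome 7, 130605808 to 130611517, mm9), known from the digestive tract and testis, was listed at 0.0121 FPKM in STHdhQ111 and at 0.0713 FPKM in STHdhQ7. Aqp9 (chromosome 9, 70958468 to 71011096, mm9), the aquaglyceroporin of hepatocytes, was listed at 0.00982 FPKM in STHdhQ111 and at 0 in STHdhQ7. No fold is given for these genes, since the depth of the libraries is unknown.

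**Figure D1:**
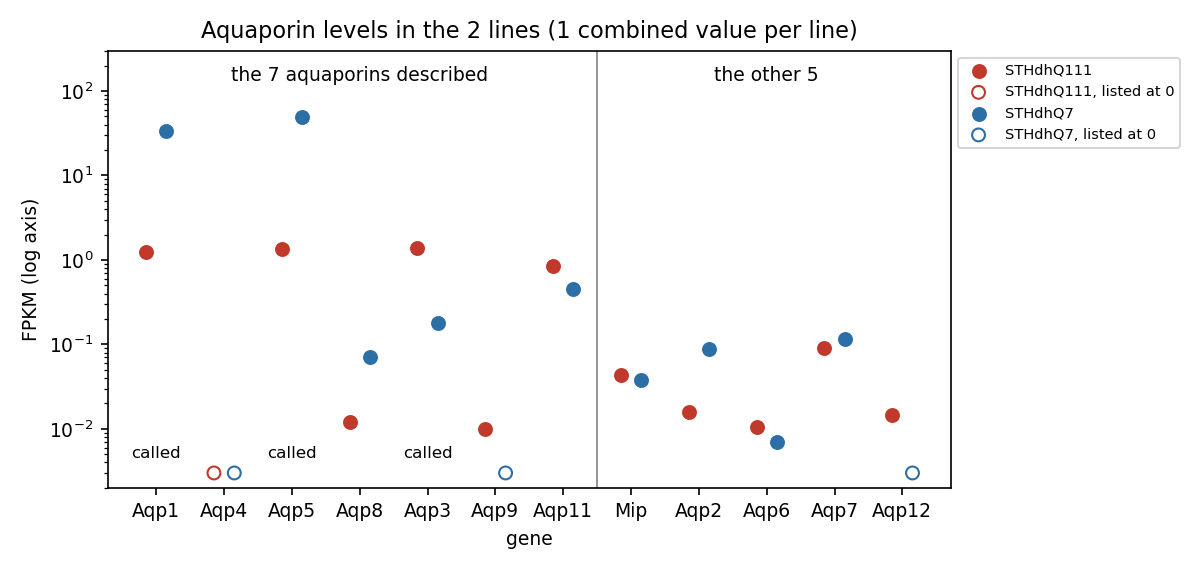
FPKM (log axis) of 12 aquaporin genes, with the STHdhQ111 value left of the STHdhQ7 value for each gene, 1 combined value per line and no error bars. Open circles at the bottom stand for a value listed at 0. Aqp1 and Aqp5 lie at 1.25 and 1.34 FPKM in STHdhQ111 against 33.6 and 49.3 FPKM in STHdhQ7, Aqp3 is the called gene with the higher level in STHdhQ111, and the other 5 aquaporins stay at 0.116 FPKM or less.

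The other 5 aquaporins in the table also had no test. They are the lens fibre channel Mip, the vasopressin-regulated kidney channel Aqp2, the intracellular kidney channel Aqp6, the adipocyte glycerol channel Aqp7 and the pancreatic Aqp12. The highest value among them was 0.116 FPKM, for Aqp7 in STHdhQ7, against 0.0905 FPKM for Aqp7 in STHdhQ111.

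Summed over all 12 genes, aquaporin transcripts came to 5.02 FPKM in STHdhQ111 and 83.9 FPKM in STHdhQ7. Aqp5 and Aqp1 together made up 51.6% of the sum in STHdhQ111 and 98.9% in STHdhQ7. The order of levels in STHdhQ111 was Aqp3, Aqp5, Aqp1 and Aqp11, all between 0.854 and 1.38 FPKM. In STHdhQ7 it was Aqp5, Aqp1, Aqp11 and Aqp3, and the level of Aqp5 was 274 times that of Aqp3 there, against 0.969 times in STHdhQ111. Whether neighbours in the STHdhQ111 order differ cannot be judged without the spread between replicates.

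**Figure D2:**
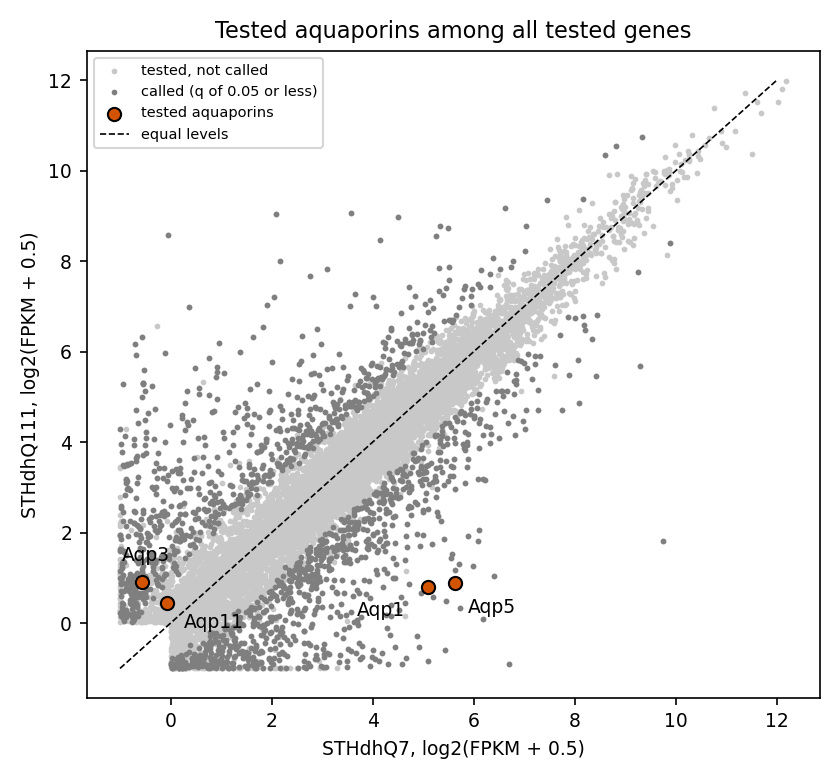
Levels of all 12740 tested genes as log2(FPKM + 0.5), STHdhQ111 on the vertical axis and STHdhQ7 on the horizontal axis, with called genes in dark grey, uncalled genes in light grey and the 4 tested aquaporins in orange. Aqp1 and Aqp5 lie far below the dashed line of equal levels, near each other. Aqp3 lies above the line, and Aqp11, which was not called, lies close to it.

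The genes with the most similar pair of levels were found by distance on log2(FPKM + 0.5) over the 2 lines, among all tested genes. With only 2 values per gene this names genes with like levels and folds and carries no further evidence. For Aqp5 the 3 nearest genes were Tspan7 (1.76 FPKM in STHdhQ111 and 49.0 FPKM in STHdhQ7), C2cd4a (1.96 FPKM in STHdhQ111 and 52.2 FPKM in STHdhQ7) and Hoxb13 (0.897 FPKM in STHdhQ111 and 43.3 FPKM in STHdhQ7). For Aqp1 they were the integrin chain Itga7 (1.09 FPKM in STHdhQ111 and 30.4 FPKM in STHdhQ7), the progenitor filament gene Nes (0.999 FPKM in STHdhQ111 and 36.0 FPKM in STHdhQ7) and the amino acid transporter Slc38a1 (1.32 FPKM in STHdhQ111 and 25.9 FPKM in STHdhQ7). For Aqp3 they were Nmnat3, an enzyme of NAD synthesis (1.39 FPKM in STHdhQ111 and 0.172 FPKM in STHdhQ7), the interferon-induced GTPase Mx1 (1.34 FPKM in STHdhQ111 and 0.189 FPKM in STHdhQ7) and Zfp810 (1.31 FPKM in STHdhQ111 and 0.187 FPKM in STHdhQ7). All 9 of these genes were called in the direction of their aquaporin.

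Values of aquaporins could be mixed if their reads were alike. Of the words of 31 bases in GENCODE M21 transcripts of each member, read on both strands, between 98.6% (Aqp11) and 100% (Aqp1, Aqp5 and Aqp8) occurred in no other gene, and no aquaporin shared a word with another. Among the other 5, 43.6% of the words of Mip were its own.

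Aqp5 lies in a cluster with Aqp2 and Aqp6, and these neighbours were nearly silent in both lines. Aqp2 ends 6482 bases before Aqp5 and was listed at 0.0157 FPKM in STHdhQ111 and at 0.0888 FPKM in STHdhQ7. Aqp6 starts 6570 bases after Aqp5 and was listed at 0.0105 FPKM in STHdhQ111 and at 0.00707 FPKM in STHdhQ7. In STHdhQ7, therefore, 1 gene of the 3 was above 0.1 FPKM. Within 100 kb of Aqp5, a distance chosen after the values were seen, 3 genes had a test and 2 of them were called lower. Over all 12740 tested genes 7.17% were called lower. With 3 genes and a distance so chosen, nothing is read from the difference. The 2 called genes were Faim2, an inhibitor of Fas-mediated cell death (0.241 FPKM in STHdhQ111 and 1.63 FPKM in STHdhQ7), and the cytokinesis gene Racgap1 (15.2 FPKM in STHdhQ111 and 54.9 FPKM in STHdhQ7). The third, the acid-sensing ion channel gene Accn2, was listed at 5.31 FPKM in STHdhQ111 and at 9.73 FPKM in STHdhQ7 and was not called.

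The surroundings of Aqp1 and Aqp3 held no called gene within 100 kb, but near Aqp1 only 1 gene had a test. That gene, Fam188b, was listed at 3.71 FPKM in STHdhQ111 and at 3.52 FPKM in STHdhQ7. On the other side of Aqp1, the growth hormone releasing hormone receptor gene Ghrhr had no test. It was listed at 0 in STHdhQ111 and at 0.00923 FPKM in STHdhQ7. Next to Aqp3, Nol6 was listed at 13.97 FPKM in STHdhQ111 and at 14.1 FPKM in STHdhQ7, and on the other side lies the near-silent Aqp7. Of the 4 tested genes within 100 kb of Aqp3 none was called. The gene before Aqp11, Clns1a, which encodes a protein studied in swelling-activated chloride currents, was listed at 13.2 FPKM in STHdhQ111 and at 12.9 FPKM in STHdhQ7 and was not called. The gene after Aqp11, the kinase Pak1, was listed at 10.7 FPKM in STHdhQ111 and at 19.96 FPKM in STHdhQ7 and was not called.

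**Figure D3:**
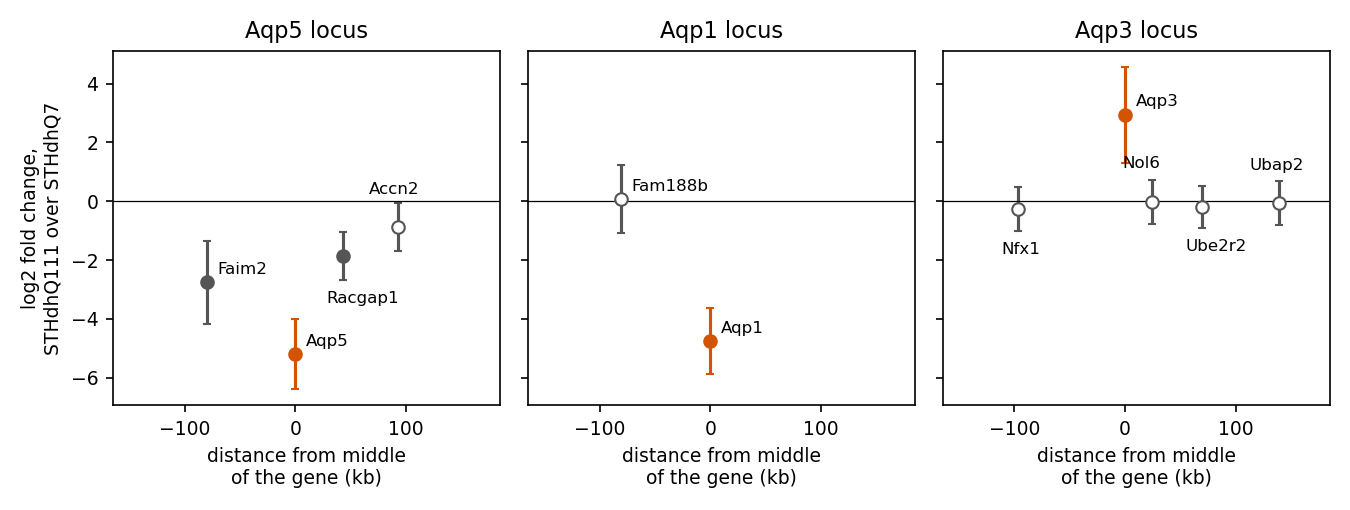
Log2 fold change (STHdhQ111 over STHdhQ7, from the authors' deposited table) of Aqp5, Aqp1 and Aqp3 (orange) and of tested genes within 100 kb (grey), against the distance between gene middles in kb. Bars are 95% intervals from the implied standard errors, and filled points are called genes. Faim2 and Racgap1 are the called genes beside Aqp5, at -2.76 and -1.85. The 1 tested gene near Aqp1 and the 4 near Aqp3 were not called.

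The promoters of the tested aquaporins differ in their content of CpG, the dinucleotide that DNA methylation acts on in mammals. They are shown because methylation of DNA is the subject named in the title of the series and because Aqp5 and Aqp1 fell together. Methylation itself was not analysed here. The 250 bases before the RefSeq start of each gene are printed 5′ to 3′ on the strand of the gene, from GRCm38, a later build than that of the expression table, with each CpG in capitals. They span chr15:99590778-99591027 on the plus strand for Aqp5, chr6:55336049-55336298 on the plus strand for Aqp1, chr4:41098184-41098433 on the minus strand for Aqp3 and chr7:97738248-97738497 on the minus strand for Aqp11.
Aqp5: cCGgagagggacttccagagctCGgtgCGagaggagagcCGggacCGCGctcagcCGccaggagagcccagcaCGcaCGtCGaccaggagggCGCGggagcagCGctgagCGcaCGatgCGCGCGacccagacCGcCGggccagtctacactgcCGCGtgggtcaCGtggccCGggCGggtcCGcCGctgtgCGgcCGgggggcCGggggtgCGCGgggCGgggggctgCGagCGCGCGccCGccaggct
Aqp1: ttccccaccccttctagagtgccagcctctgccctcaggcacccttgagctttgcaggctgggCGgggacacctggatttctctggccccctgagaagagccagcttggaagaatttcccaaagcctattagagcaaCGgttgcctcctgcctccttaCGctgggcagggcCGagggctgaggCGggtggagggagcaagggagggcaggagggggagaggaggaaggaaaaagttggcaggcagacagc
Aqp3: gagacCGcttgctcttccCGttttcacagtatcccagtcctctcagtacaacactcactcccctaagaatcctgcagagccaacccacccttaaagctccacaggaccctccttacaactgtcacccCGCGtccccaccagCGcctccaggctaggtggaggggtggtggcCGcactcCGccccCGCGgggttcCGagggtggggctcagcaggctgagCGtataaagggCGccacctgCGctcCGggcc
Aqp11: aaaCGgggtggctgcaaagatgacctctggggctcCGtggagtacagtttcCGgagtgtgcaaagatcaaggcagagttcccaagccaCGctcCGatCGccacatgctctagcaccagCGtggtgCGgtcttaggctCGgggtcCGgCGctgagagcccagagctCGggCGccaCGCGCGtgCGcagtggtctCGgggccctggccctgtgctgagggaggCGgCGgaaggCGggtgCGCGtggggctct

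These stretches hold 38 CpG for Aqp5, 5 for Aqp1, 14 for Aqp3 and 23 for Aqp11. In the full RefSeq windows of 300 bases, 250 before and 50 after the start, Aqp5 had 46 CpG, more than 98.4% of all 32851 windows, whose median was 7. Its ratio of observed to expected CpG was 0.974, against a median of 0.384 over all windows. Tested genes had more CpG than all windows. Over the 8950 tested genes with a window the medians were 21 CpG and a ratio of 0.757. Aqp1 had 8 CpG and a ratio of 0.278, so the promoters of the pair that fell were far apart in CpG content. Among tested genes with a window, the medians were 19 CpG for those called lower and 15 for those called higher. Any part of CpG content in the fall of Aqp5 and Aqp1 was not tested. Aqp3 had 21 CpG and Aqp11 had 27. Windows were matched for 6 of the 7 members, all but Aqp4, and the barely detected Aqp8 and Aqp9 had 6 CpG and, in the 2 windows of Aqp9, 1 and 4.

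The letters TATAAA, the core of the TATA box, were searched on both strands and found in 13.6% of all windows. Among the members they occurred in Aqp3, 29 bases before the start and on the strand of the gene. The letters GGGCGG, the core of the GC box, were found on either strand in 35.7% of all windows. They occurred 3 times in Aqp5, 1 time in Aqp1 and 1 time in Aqp3. The Aqp3 window held both motifs, with GGGCGG on the other strand 73 bases before the start, at a place apart from TATAAA. A match describes the letters and is not evidence of binding.

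**Figure D4:**
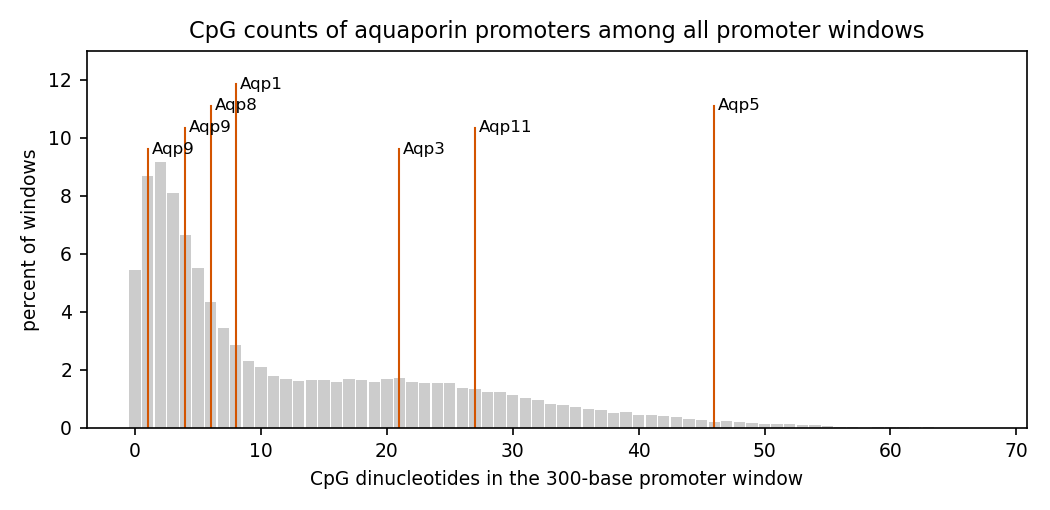
Number of CpG dinucleotides in promoter windows of 300 bases (horizontal axis) against the percent of all 32851 windows with that number (grey bars). Orange lines mark the 7 windows of 6 aquaporins. Aqp5 stands at 46 in the upper tail, Aqp3 at 21 and Aqp11 at 27, while Aqp1, Aqp8 and Aqp9 stand at 8 or fewer.

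Genes that work with aquaporins were described through 6 lists, each set beside the 13.5% called and the median log2 ratio of -0.05 over all tested genes, on the scale of log2(FPKM + 0.5). The list medians lay between -0.62 and 0.13. Calls went in both directions in 4 of the 6 lists.

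Water follows salt, so genes of sodium transport were listed, and they held the most calls of the 6 lists. A link of these calls to water movement was not tested. Of 15 tested genes 5 were called lower, 1 was called higher and 9 were not called, with a median log2 ratio of -0.62. The sodium/proton exchangers Slc9a7 (0.0296 FPKM in STHdhQ111 and 1.35 FPKM in STHdhQ7), Slc9a9 (0.227 FPKM in STHdhQ111 and 3.97 FPKM in STHdhQ7) and Slc9a2 (0.138 FPKM in STHdhQ111 and 2.06 FPKM in STHdhQ7) fell. In the authors' deposited table Slc9a7 had a log2 fold change of -5.51 (implied standard error 1.45), a larger fold than the -5.20 of Aqp5, from a value near 0 in STHdhQ111. Slc9a3r1, a scaffold protein of the membrane, was at 31.8 FPKM in STHdhQ111 and 95.8 FPKM in STHdhQ7. It was called lower and is named after its values were seen. The gene called higher was Scnn1a, a subunit of the epithelial sodium channel, at 1.19 FPKM in STHdhQ111 and 0.0768 FPKM in STHdhQ7. Like Aqp3 it was barely present in STHdhQ7. The sodium pump subunit Atp1b3 was listed at 55.6 FPKM in STHdhQ111 and at 93.1 FPKM in STHdhQ7 and was not called.

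Among carbonic anhydrases and bicarbonate transporters, which move acid and base along with fluid, 2 of 10 tested genes were called lower and 1 higher, with a median log2 ratio of -0.06. The gene called higher was Car12, a carbonic anhydrase of the cell surface, at 8.60 FPKM in STHdhQ111 and 0.824 FPKM in STHdhQ7. The mitochondrial carbonic anhydrase Car5b (5.81 FPKM in STHdhQ111 and 17.9 FPKM in STHdhQ7) and the bicarbonate transporter Slc4a8 (0.710 FPKM in STHdhQ111 and 2.01 FPKM in STHdhQ7) were called lower. The anion exchanger Slc4a2 was listed at 48.7 FPKM in STHdhQ111 and at 51.9 FPKM in STHdhQ7, and Slc4a11 at 27.8 FPKM in STHdhQ111 and 15.8 FPKM in STHdhQ7. Neither was called.

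Genes of cell volume control and chloride transport, which act when water flow swells or shrinks a cell, split evenly. Of 17 tested genes 2 were called higher, 2 were called lower and 13 were not called, with a median log2 ratio of 0.11. The potassium-chloride cotransporter Slc12a7 was at 69.8 FPKM in STHdhQ111 and 23.2 FPKM in STHdhQ7, and the kinase Wnk4, a regulator of such cotransporters, at 12.3 FPKM in STHdhQ111 and 4.04 FPKM in STHdhQ7. Both rose. The chloride transporter Clcn3 (4.50 FPKM in STHdhQ111 and 17.0 FPKM in STHdhQ7) and Lrrc8b, a subunit of the volume-regulated anion channel (1.29 FPKM in STHdhQ111 and 4.09 FPKM in STHdhQ7) fell. The cotransporter Slc12a4, at 161.6 FPKM in STHdhQ111 and 127.8 FPKM in STHdhQ7, and the kinase Wnk1, at 34.8 FPKM in STHdhQ111 and 46.5 FPKM in STHdhQ7, were not called.

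In the response to hypertonicity and the uptake of osmolytes 2 of 9 tested genes were called lower and 0 higher, while the median log2 ratio had the opposite sign, at 0.13. They were the taurine transporter Slc6a6 (15.6 FPKM in STHdhQ111 and 57.8 FPKM in STHdhQ7) and Hspa4l, a chaperone of the Hsp110 family (12.98 FPKM in STHdhQ111 and 27.3 FPKM in STHdhQ7). The amino acid transporter Slc38a2, at 93.9 FPKM in STHdhQ111 and 85.9 FPKM in STHdhQ7, and the chaperone Hspa1b, at 100.3 FPKM in STHdhQ111 and 69.1 FPKM in STHdhQ7, were not called.

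The dystrophin complex, which anchors Aqp4 in astrocytes, had 3 of 13 tested genes called lower and 0 higher, with a median log2 ratio of -0.48. The dystrobrevin gene Dtna was at 0.616 FPKM in STHdhQ111 and 9.77 FPKM in STHdhQ7, the laminin chain Lama2 at 0.323 FPKM in STHdhQ111 and 1.21 FPKM in STHdhQ7, and sarcospan (Sspn) at 2.62 FPKM in STHdhQ111 and 7.32 FPKM in STHdhQ7. The dystroglycan gene Dag1 was listed at 46.96 FPKM in STHdhQ111 and at 47.4 FPKM in STHdhQ7, and Agrn at 53.5 FPKM in STHdhQ111 and 58.7 FPKM in STHdhQ7, and neither was called. Of the 16 listed genes of the complex 13 thus had a test in lines in which Aqp4 was listed at 0.

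Glycerol handling, the pathway served by aquaglyceroporins, had 1 of 11 tested genes called higher and 1 called lower, with a median log2 ratio of -0.36. Gpam, which starts glycerolipid synthesis, was at 10.6 FPKM in STHdhQ111 and 4.73 FPKM in STHdhQ7, while the glycerol-3-phosphate dehydrogenase Gpd1 was at 0.443 FPKM in STHdhQ111 and 1.88 FPKM in STHdhQ7. The lipid droplet protein Plin2, at 262.2 FPKM in STHdhQ111 and 439.4 FPKM in STHdhQ7, and the lipase Pnpla2, at 16.7 FPKM in STHdhQ111 and 24.7 FPKM in STHdhQ7, were not called.

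**Figure D5:**
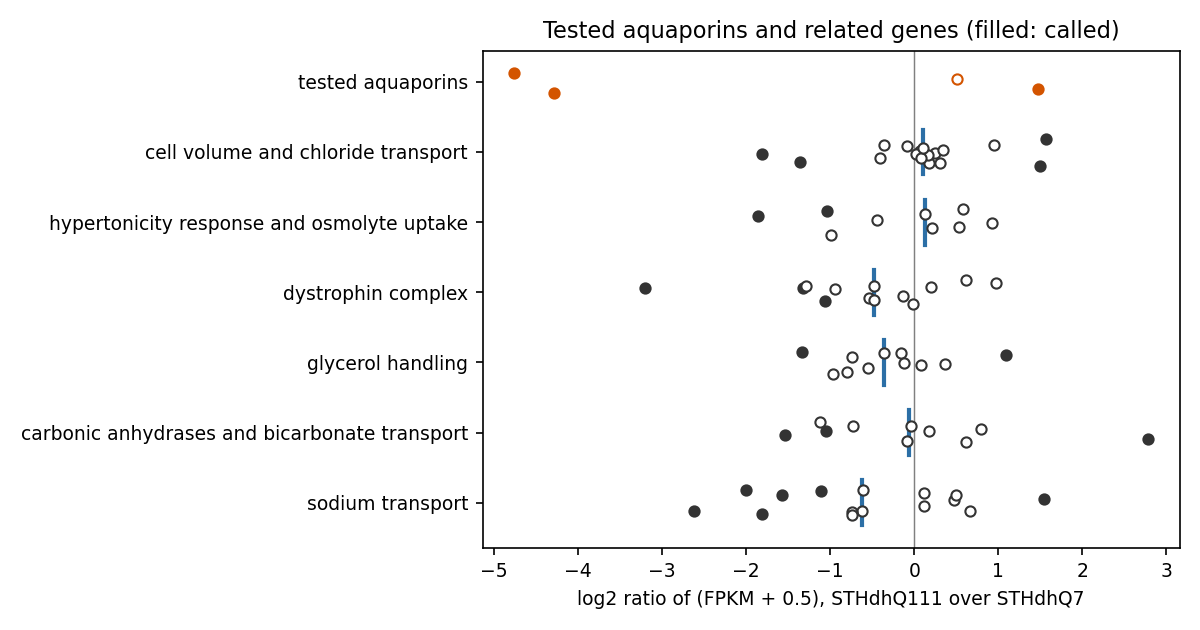
Log2 ratio of (FPKM + 0.5), STHdhQ111 over STHdhQ7, for the 4 tested aquaporins (orange) and for tested genes of 6 related lists (black), with filled points for called genes and a blue bar for the median of each list. Aqp5 and Aqp1 lie at -4.76 and -4.28, further left than the related genes on this scale, on which low genes such as Slc9a7 are drawn toward 0, and the list medians stay between -0.62 and 0.13.

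Several of these aquaporins are known from epithelia, so markers of other cell types are given beside their values. Of 10 epithelial markers 8 were below 1 FPKM in both lines, and their levels summed to 10.3 FPKM in STHdhQ111 and 63.7 FPKM in STHdhQ7. Most of that sum was the keratin Krt19, at 8.08 FPKM in STHdhQ111 and 56.6 FPKM in STHdhQ7, and both Krt19 and Krt8 were called lower, as Aqp5 and Aqp1 were. The epithelial adhesion molecule Epcam was listed at 0.477 FPKM in STHdhQ111 and at 0.050 FPKM in STHdhQ7. Of 8 choroid plexus and ependymal markers the defining Ttr and Otx2 were listed at 0 in both lines. The list summed to 0.630 FPKM in STHdhQ111 and 11.1 FPKM in STHdhQ7, nearly all of it the cilium factor Foxj1, which was called lower (0.408 FPKM in STHdhQ111 and 10.3 FPKM in STHdhQ7). The part of such cells in the fall of Aqp5 and Aqp1 was not tested.

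Astrocyte markers (7 genes) summed to 120.0 FPKM in STHdhQ111 and 82.7 FPKM in STHdhQ7, mostly the uncalled Gja1 (103.1 FPKM in STHdhQ111 and 59.7 FPKM in STHdhQ7). The called member of that list, Aldoc, was lower (2.29 FPKM in STHdhQ111 and 9.18 FPKM in STHdhQ7), and Gfap was listed at 0.0105 FPKM in STHdhQ111 and at 0.138 FPKM in STHdhQ7. Endothelial markers (8 genes, Cldn5 at 0 in both lines) summed to 2.43 FPKM in STHdhQ111 and 7.90 FPKM in STHdhQ7, with Flt1 called lower (0.783 FPKM in STHdhQ111 and 7.45 FPKM in STHdhQ7) and Tek called higher (1.46 FPKM in STHdhQ111 and 0.386 FPKM in STHdhQ7). Erythroid markers (6 genes, Hbb-b1 at 0 in both lines) summed to 4.37 FPKM in STHdhQ111 and 11.9 FPKM in STHdhQ7. Nearly all of that sum was the uncalled globin gene Hba-a1 (4.22 FPKM in STHdhQ111 and 11.7 FPKM in STHdhQ7). Of 8 markers of striatal neurons 7 were below 1 FPKM in both lines, and the eighth, the enkephalin gene Penk, was listed at 6.49 FPKM in STHdhQ111 and at 2.85 FPKM in STHdhQ7 and was not called. The list of 4 progenitor genes summed to 2484 FPKM in STHdhQ111 and 3426 FPKM in STHdhQ7, mostly vimentin (Vim), and Nes, Sox2 and Pax6 were called lower. Htt, the gene whose alleles differ, was listed at 2.83 FPKM in STHdhQ111 and at 3.91 FPKM in STHdhQ7 and was not called.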

How the data were processed

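Polyadenylated RNA was sequenced with a library method that the labels' protocols do not describe as marking strand. The submitters' processing notes name the mm9 build with Cuffdiff, Cufflinks 2.0.2, Bowtie 0.12.7 and TopHat 1.4.0. Their options and the annotation are not given in the sources used. The authors deposited 1 table with, per the file headers, FPKM of each line combined over replicates, and a p-value and q-value per gene. The log2 fold change and the test statistic, a score opposite in sign to the fold change, come from the same deposited table, per the file headers.

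The depth is unknown: among 1276 genes of 0.05 FPKM or less in both lines no ratio was common (fullest bin of 0.1 log2 units 5.02%). No test was run. The deposited p-value equalled the normal tail of the statistic within 2.7e-06 and the q-value the Benjamini-Hochberg adjustment over tested genes within 2.2e-06, so fold change over statistic gives the standard error. Nothing in the labels says that replicates were separate cultures, and the spread behind the authors' p-values may therefore be technical. The table's status was OK (tested) for 12740 genes.

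Locus starts were raised by 1: end minus start equalled the RefSeq length for 7132 of 20606 symbols, against 453 with 1 added. Promoters came from RefSeq (GRCm38.p6). The Benjamini-Hochberg adjustment and the calls were tested on simulated fold changes, and the log2 ratio on made-up values. The neighbour, pattern, promoter and word steps were not tested in this way.

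Members, lists and the rule for naming genes were chosen with earlier results of these data known. The rule takes all aquaporins, up to 4 called members of each list by fold and 2 uncalled by level, the nearest gene on each side of a called member, the 3 genes nearest in pattern, leading markers and Htt. Faim2, Racgap1, Accn2, Clns1a and Pak1 were named after their values were seen. Protein sequences were not analysed here, and 1 gene of a related list is not reported here. Alternatives covered the threshold, adjustment, filter, minimum fold, pseudocount and scaling. Python 3.11.15, numpy 2.4.6, pandas 2.3.3, scipy 1.17.1 and matplotlib 3.10.9 were used.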

Additional observations from a re-analysis of the deposited data

How the results depend on the processing

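The 5 other rules for calls that were tried reuse the deposited p-values and fold changes, so they give no separate evidence. Aqp1 and Aqp5, with a q listed as 0, were called under each of these rules. Aqp3 was called in 3 of them, and was lost with Bonferroni adjustment and when genes under a mean of 1 FPKM were left out (a filter its own low mean fails), which left 2 aquaporins called. None of 36 recomputed log2 ratios, medians of the related lists among them, changed sign under another pseudocount or scaling. Adding the same amount to both levels cannot change the sign of a gene's ratio, and the scalings shifted the ratios little. Nothing is therefore read from the kept signs. With a pseudocount of 0.1 FPKM the ratio of Aqp3 was 2.40 in place of 1.47 and that of Aqp8 -0.61 in place of -0.16, since both have low values.

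The whole table held 1723 calls, 577 with Bonferroni adjustment and 1048 with a minimum log2 fold change of 2. With a q of 0.01, calls were 1 of hypertonicity, 1 of the dystrophin complex and 0 of glycerol handling. With the 1 FPKM filter they were 1 of hypertonicity and 3 of sodium transport. With Bonferroni adjustment they were 0 of cell volume, 1 of hypertonicity, 0 of the dystrophin complex, 0 of glycerol handling, 1 of carbonic anhydrases and 2 of sodium transport. With the minimum fold they were 0 of cell volume, 0 of hypertonicity, 1 of the dystrophin complex, 1 of glycerol handling and 1 of carbonic anhydrases. Apart from the 1 FPKM filter, these rules are stricter by construction. The filter redoes the q-values over the genes kept, which can move calls of genes that pass it. With Bonferroni adjustment 53.0% of calls were higher in STHdhQ111, against 47.0% as reported.

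No paired analysis was possible because the table holds 1 combined value per line, and for the same reason leaving out a replicate was not possible. The unknown depth limits what values near 0 can show.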
